A study of Mus musculus with 69 samples.

Results

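The formyl peptide receptors Fpr1 and Fpr2, haptoglobin (Hp) and the acute-phase and antimicrobial genes Lcn2, S100a8, S100a9 and Saa3 were followed in RNA-seq of bone marrow–derived macrophages (BMDMs) from mice. These 7 genes were taken by symbol from the 24537 genes of each expression table and the 24527 genes of each F1 table. Fpr1, Fpr2 and Hp were chosen by their lower TPM at 24 hours of IL-4 in every strain of the 5-strain table, so the change at 24 hours in that table is described here without a test. The other 4 were set beside them with results of these data known, and are described in the same way there.

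Expression was available for untreated (basal) BMDMs and BMDMs given IL-4 at 20 ng/ml for 24 hours. They came from the laboratory strains C57BL/6J (C57), BALB/cJ (BALB) and NOD/ShiLtJ (NOD) and from the wild-derived strains PWK/PhJ, called PWK, and SPRET/EiJ, called SPRET, with 3 libraries a group and 2 for basal PWK. A second table held untreated C57 and SPRET cells and cells at 1, 6 and 24 hours of IL-4, with 2 libraries a group. The third table covered the same times in Egr2 fl/fl BMDMs (Egr2WT) and in BMDMs from LyzM-Cre Egr2 fl/fl mice (Egr2MKO), where Cre is driven by the myeloid LyzM promoter, also with 2 libraries a group. BMDMs of F1 mice from C57 × SPRET and from C57 × NOD crosses had 2 basal and 2 libraries at 24 hours each. All mice were females of 8 to 12 weeks, and cells from bone marrow were grown with M-CSF for about 7 days.

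FPR1 and FPR2 are G protein–coupled receptors through which phagocytes sense N-formylated peptides from bacteria and mitochondria, as well as host ligands such as annexin A1 and serum amyloid A. Haptoglobin binds free haemoglobin, lipocalin 2 (Lcn2) withholds iron from bacteria by binding their siderophores, S100A8 and S100A9 pair as calprotectin, and SAA3 is the serum amyloid A that mouse macrophages make themselves. These genes belong to the inflammatory side of macrophage activation, and IL-4 acts through STAT6 to set up the alternative state.

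In mm10, Fpr1 lies on chromosome 17 from 17876471 to 17883939 on the minus strand, and Fpr2 lies beside it on the plus strand from 17887824 to 17893952. The gene bodies are 3.88 kb apart and point away from each other. S100a8 (chromosome 3, 90669071 to 90670034, plus strand) and S100a9 (90692630 to 90695721, minus strand) are 22.6 kb apart. Hp is on chromosome 8 (109575128 to 109579172), Lcn2 on chromosome 2 (32384637 to 32387739) and Saa3 on chromosome 7 (46711998 to 46715676), all on the minus strand. Because the members of each neighbouring pair sat side by side and did not always move together, the 250 bases before their start sites are shown from RefSeq (GRCm38.p6, the assembly of mm10), 5′ to 3′ on the strand of the gene. Capitals mark matches to the motifs searched, and 6 of the 7 genes had a promoter in the table used.
Fpr1, chr17:17883940-17884189, minus strand: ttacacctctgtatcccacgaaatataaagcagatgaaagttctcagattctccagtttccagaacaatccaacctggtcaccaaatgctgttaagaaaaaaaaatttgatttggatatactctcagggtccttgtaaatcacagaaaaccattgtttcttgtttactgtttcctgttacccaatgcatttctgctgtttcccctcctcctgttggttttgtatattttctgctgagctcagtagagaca
Fpr2, chr17:17887574-17887823, plus strand: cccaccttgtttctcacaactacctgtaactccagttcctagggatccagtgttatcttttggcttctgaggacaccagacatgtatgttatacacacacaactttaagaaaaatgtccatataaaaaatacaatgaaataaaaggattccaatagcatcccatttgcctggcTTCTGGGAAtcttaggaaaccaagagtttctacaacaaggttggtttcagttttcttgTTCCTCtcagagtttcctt
S100a8, chr3:90668821-90669070, plus strand: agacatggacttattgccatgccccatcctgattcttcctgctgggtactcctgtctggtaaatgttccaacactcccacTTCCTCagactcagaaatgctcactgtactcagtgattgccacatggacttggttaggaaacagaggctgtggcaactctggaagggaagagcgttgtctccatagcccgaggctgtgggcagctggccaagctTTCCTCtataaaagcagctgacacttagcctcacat
S100a9, chr3:90695722-90695971, minus strand: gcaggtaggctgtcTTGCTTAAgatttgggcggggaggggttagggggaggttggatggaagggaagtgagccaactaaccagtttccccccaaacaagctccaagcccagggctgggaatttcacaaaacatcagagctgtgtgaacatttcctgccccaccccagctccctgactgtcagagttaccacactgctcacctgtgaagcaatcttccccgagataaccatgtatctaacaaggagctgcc

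The motifs were searched on both strands as C/EBP (TTGCNNAA), AP-1 (TGANTCA), PU.1 (GAGGAA), STAT6 (TTCNNNNGAA), a STAT site with the shorter spacing (TTCNNNGAA) and NF-kB. Of 32817 promoter windows of the same length, 9.57% held the C/EBP motif, 6.75% AP-1, 23.3% PU.1, 5.85% STAT6, 7.01% the shorter STAT site and 7.25% NF-kB. The Fpr2 window held a STAT match (TTCTGGGAA, 77 to 69 bases before the start) and a PU.1 match 19 to 14 bases before it, whereas none of these letters were found in the Fpr1 window. S100a8 had PU.1 matches at 170 to 165 and 36 to 31 bases, and S100a9 had a C/EBP match (TTGCTTAA) at 236 to 229 bases. In Lcn2, the window held the STAT6 spacing (TTCAACAGAA, 156 to 147 bases), C/EBP and PU.1, and in Saa3 a C/EBP match (TTATGCAA) at 99 to 92 bases. None of the matches overlapped one another, and a match describes only the letters in this reference window.

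The libraries held 7.02 to 22.5 M tags in the 5 strains, 5.70 to 24.0 M in the time course and 4.69 to 32.9 M in the Egr2 table, and the depth of the F1 libraries is unknown. Macrophage genes (7 of 7 measured) summed to between 9325 and 53701 TPM (transcript abundance scaled for gene length and library size), led by Lyz2. Neutrophil genes (14 of 14 measured) summed to between 15.9 and 302 TPM. Of these, only Ly6g and Retnlg were below 1 TPM in every library. Each of the others reached 1 TPM in some library. Mmp8 reached 282 TPM in basal C57 of the time course, and Csf3r reached 46.2 TPM in C57 after IL-4 in the 5-strain table. Monocyte genes (5 of 5 measured) summed to between 0.732 and 113 TPM. Lymphocyte and erythroid genes stayed at or below 0.743 TPM in sum, dendritic cell genes at or below 7.83 TPM, and mast cell, basophil and eosinophil genes at or below 21.8 TPM. In bulk RNA, fewer cells of a kind and less RNA per cell cannot be told apart. The tables came from separate experiments, and levels were tested only within a table. Basal Saa3 of C57 was 27.8 times that of Egr2WT and 4.07 times that of C57 in the time course, and basal S100a9 of C57 was 191 times that in the time course.

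In the 5 strains, both receptors were lower after 24 hours of IL-4 in every library of every strain. Fpr1 was 44.1, 40.2 and 44.8 TPM in the basal C57 libraries and 7.68, 7.68 and 7.19 TPM after IL-4. It was 50.1, 54.4 and 53.9 TPM in basal SPRET and 3.21, 3.76 and 3.64 TPM after IL-4, and this 14.9-fold lower mean was its largest difference. The other strains started lower. BALB went from 9.73, 8.55 and 7.63 to 1.97, 2.12 and 1.70 TPM, and NOD from 5.46, 7.43 and 7.98 to 2.21, 1.97 and 1.34 TPM. In PWK, the difference was the smallest at 2.42-fold, from 15.4 and 15.7 to 6.18, 7.07 and 5.98 TPM.

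Fpr2 was the higher of the 2 receptors in 4 strains, with a basal ratio of Fpr2 to Fpr1 from 2.48 in C57 to 12.2 in BALB, whereas in SPRET it was 0.837. Its basal values were 105, 103 and 112 TPM in C57, and after IL-4 they were 7.84, 8.26 and 10.6 TPM, or 8.35% of the basal mean. In SPRET, 42.8, 44.5 and 45.3 TPM became 1.75, 2.43 and 1.90 TPM, or 21.8-fold less. Again, the difference was smallest in PWK, followed by NOD. PWK kept 39.8, 34.5 and 36.7 TPM of a basal 109 and 96.8 TPM, and NOD kept 18.8, 17.0 and 19.5 TPM of 67.5, 65.6 and 64.3 TPM. In BALB, Fpr2 went from 116, 98.7 and 102 to 12.9, 12.1 and 12.9 TPM.

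Hp was also lower after IL-4 without overlap of libraries in all 5 strains. It went from 365, 345 and 397 TPM to 36.3, 39.8 and 40.5 TPM in C57 and from 102, 91.4 and 106 TPM to 9.17, 9.90 and 10.0 TPM in SPRET, so that the means were 9.50-fold and 10.3-fold lower. Basal BALB held 425, 419 and 427 TPM and treated BALB 70.9, 60.4 and 69.4 TPM. NOD stood apart with a basal level of only 48.1, 50.5 and 58.8 TPM and 14.1, 10.0 and 9.77 TPM after IL-4. In PWK, the mean was 3.40-fold lower, from 248 and 249 to 71.6, 69.9 and 77.7 TPM.

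Lcn2 had the same direction in all strains and a far wider spread of levels. PWK libraries held 844 and 832 TPM under basal conditions and 262, 261 and 256 TPM after IL-4. SPRET libraries, at the other end, held 1.39, 2.26 and 1.55 TPM and 0.809, 1.04 and 0.609 TPM. The highest basal strain mean was thus 483 times the lowest. C57 went from 86.6, 80.3 and 84.2 to 16.4, 16.0 and 15.6 TPM, BALB from 31.1, 34.3 and 34.4 to 7.16, 6.46 and 5.80 TPM, and NOD from 134, 128 and 137 to 33.3, 24.5 and 30.5 TPM. The means after IL-4 were lower by between 3.23-fold in PWK and 5.23-fold in C57, and 2.11-fold in SPRET, where the level was close to 1 TPM.

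The S100 genes parted the strains. S100a8 was 94.0, 87.1 and 111 TPM in basal C57 and 14.6, 16.1 and 12.7 TPM after IL-4, a 6.74-fold lower mean. In PWK, 351 and 341 TPM became 301, 296 and 315 TPM, and in SPRET, 394, 334 and 370.3 TPM became 244, 271 and 261 TPM, so that both wild-derived strains kept most of the transcript, with means 1.14-fold and 1.42-fold lower. BALB and NOD resembled C57 in direction. BALB went from 48.8, 56.7 and 53.2 to 17.0, 16.0 and 17.7 TPM and NOD from 49.3, 38.0 and 47.2 to 13.3, 15.1 and 13.3 TPM.

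S100a9, whose product partners that of S100a8, had another order of strains. It was lower after IL-4 in C57, from 14.7, 18.4 and 18.1 to 3.51, 7.58 and 3.61 TPM, and in BALB, from 2.92, 1.81 and 1.59 to 1.01, 0.361 and 0.893 TPM. In PWK, all libraries after IL-4 were above the basal ones, with 187 and 190.5 TPM before and 247, 239 and 274 TPM after. NOD libraries overlapped, at 2.05, 2.29 and 1.80 TPM and 1.49, 3.15 and 1.14 TPM. SPRET had nearly none in spite of its high S100a8, with 0.269, 0.132 and 0.636 TPM before and 0.132, 0.747 and 0.222 TPM after IL-4. The ratio of mean S100a8 to mean S100a9 under basal conditions was 1.83 in PWK, 5.71 in C57, 21.9 in NOD and 25.1 in BALB.

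Saa3 was by far the most abundant of the 7. Its basal libraries held 25838, 24917 and 27466 TPM in C57, 67048 and 70116 TPM in PWK and 72741, 66829 and 72702 TPM in SPRET, the last being 9.74 to 10.5% of all TPM listed. After IL-4 these were 9183, 10251 and 10365 TPM, 36509, 35354 and 38881 TPM and 28684, 29915 and 30636 TPM. The mean after IL-4 was lower by 1.86-fold in PWK up to 2.62-fold in C57, the narrowest range of the 7. BALB went from 22071, 22804 and 22617 to 8646, 8844 and 9291 TPM and NOD from 18397, 18359 and 19452 to 8688, 8426 and 7949.6 TPM. The TPM values of a library share 1 total, and the part of the Saa3 share in the values of other genes was not tested.

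Counted as a mean more than 2-fold lower with no overlap of libraries, 29 of the 35 pairs of gene and strain were lower after IL-4. These were 7 of 7 genes in C57 (3.03% of the 11907 genes tested did so), 7 for BALB (2.28%), 6 for NOD (1.17%), 4 for PWK (1.55%) and 5 for SPRET (3.12%). Fpr1, Fpr2, Hp and Lcn2 did so in all 5 strains, as did 13 of all genes (0.109%). The choice of the genes used these values, so nothing is read from the counts. Just inside the 2-fold bound were Lcn2 in SPRET (2.11-fold) and Saa3 in NOD (2.24-fold), and just outside it was Saa3 in PWK (1.86-fold). S100a8 in SPRET lay well short of it (1.42-fold). The monocyte genes were lower after IL-4 in 4 strains, from 40.6–43.3 to 13.4–18.9 TPM in C57, 7.72–8.87 to 2.99–4.44 TPM in BALB, 20.2–23.9 to 7.60–10.8 TPM in PWK and 3.90–4.28 to 0.732–1.10 TPM in SPRET. In NOD they overlapped, at 3.69–5.83 and 3.23–6.02 TPM. The neutrophil genes had a higher sum after IL-4 in C57 (82.5–85.5 to 87.8–105 TPM), BALB (49.9–55.2 to 55.6–57.6 TPM), NOD (means 17.8 and 32.4 TPM, without overlap) and PWK (48.9–49.4 to 58.4–60.9 TPM). Their sum was lower in SPRET (53.4–56.7 to 46.7–50.9 TPM). The top gene of this list, Csf3r, went from 12.1–15.2 to 38.6–46.2 TPM in C57 and 13.336–15.005 to 28.747–31.045 TPM in BALB. It went from 9.69–11.1 to 22.6–26.9 TPM in NOD and 11.8–13.4 to 28.8–30.1 TPM in PWK, and overlapped in SPRET. In C57, BALB and PWK, Csf3r rose by more than the sum did, so the other neutrophil genes together were lower. The part of the monocyte and neutrophil genes in the differences was not tested.

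**Figure D1:**
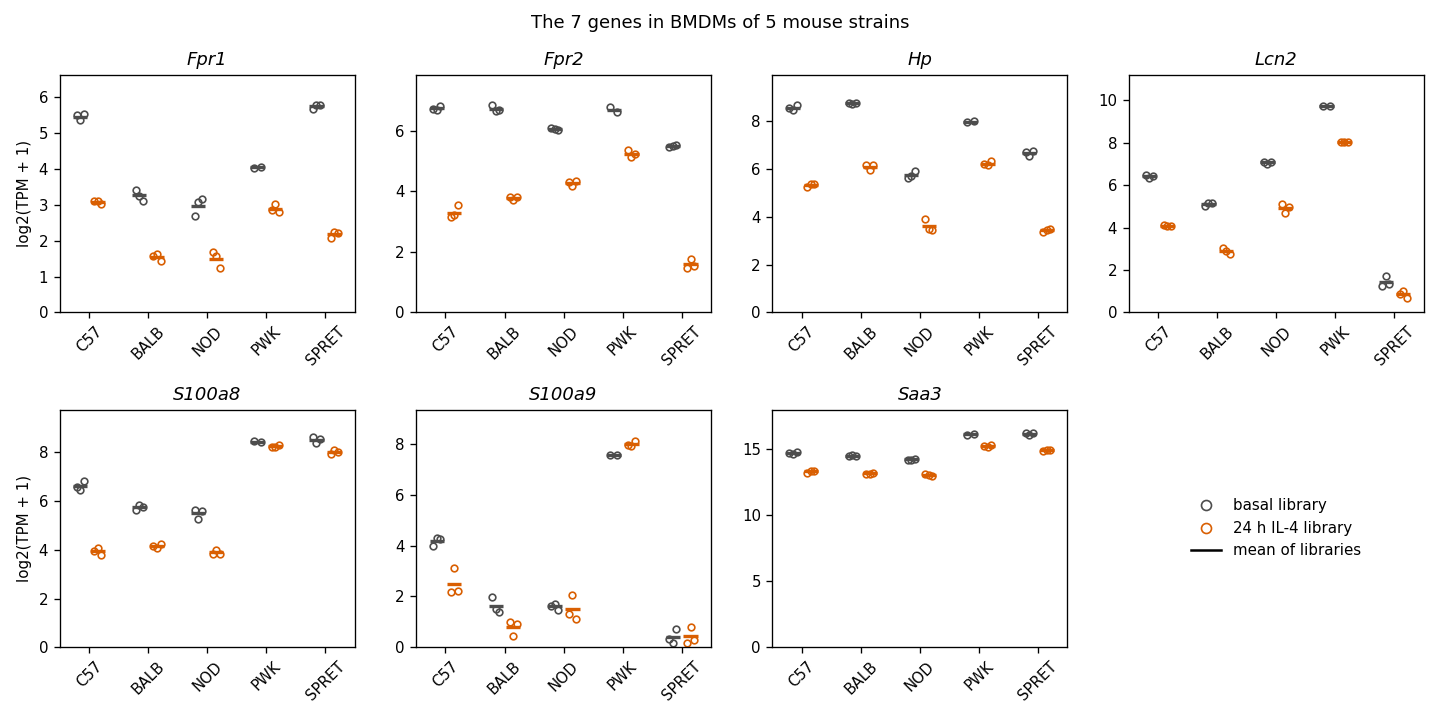
Expression of the 7 genes as log2(TPM + 1) in each library (circles) of the 5 strains, basal in grey and after 24 hours of IL-4 in orange, with the mean as a bar. Fpr1, Fpr2, Hp and Lcn2 are lower after IL-4 in all strains, S100a8 stays high in PWK and SPRET, and S100a9 is higher after IL-4 in PWK.

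To ask how far the strains differed before treatment, basal levels were compared with C57 on the log2(TPM + 1) scale with limma (a call needs a change past 2-fold and an adjusted p below 0.05 over all genes, and ± gives the SE). Of 28 comparisons, 18 were called, 6 higher and 12 lower than C57. BALB had 3 calls (4.81% of all genes were called), NOD 4 (16.9%), PWK 5 (13.3%) and SPRET 6 (18.1%). Fpr1 was lower in BALB by 2.20 ± 0.11 (SE, adjusted p = 2.1e-14), in NOD by 2.48 ± 0.11 (SE, adjusted p = 5.2e-16) and in PWK by 1.41 ± 0.12 (SE, adjusted p = 4.0e-10). Basal Fpr2 was not called in BALB, NOD or PWK, with a PWK minus C57 difference of -0.05 (95% confidence interval, -0.26 to 0.15, adjusted p = 0.67), and was lower in SPRET (-1.25 ± 0.09, adjusted p = 3.8e-12). Between the other pairs of strains, 29 of 42 basal comparisons were called. Of all genes, from 14.6% (PWK against NOD) to 33% (SPRET against NOD) were called in these pairs. For Fpr1, the order was SPRET, C57, PWK, BALB and NOD, and the last 2 overlapped. For Fpr2, the libraries of C57, BALB and PWK overlapped at the top, above NOD and then SPRET.

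Basal Hp ran from BALB through C57, PWK and SPRET to NOD with no overlap between neighbours, and was lower than in C57 in NOD (-2.79 ± 0.10, adjusted p = 2.5e-18) and SPRET (-1.88 ± 0.10, adjusted p = 4.7e-15). Lcn2 was higher in PWK (3.31 ± 0.11, adjusted p = 2.5e-18) and lower in SPRET (-4.97 ± 0.10, adjusted p = 1.8e-23) and in BALB (-1.31 ± 0.10, adjusted p = 9.3e-11). S100a8 was higher in PWK (1.83 ± 0.10, adjusted p = 1.0e-13) and SPRET (1.90 ± 0.09, adjusted p = 2.2e-15), whose libraries overlapped (SPRET minus PWK 0.08, 95% confidence interval -0.14 to 0.29, adjusted p = 0.52). S100a9, in contrast, was higher in PWK (3.40 ± 0.26, adjusted p = 3.6e-11) and lower in SPRET (-3.76 ± 0.24, adjusted p = 3.3e-13). Saa3 was higher in PWK (1.40 ± 0.06, adjusted p = 6.7e-17) and SPRET (1.44 ± 0.05, adjusted p = 1.5e-18), and as the top gene of these libraries it was set equal by quantile normalization. The call for S100a8 in NOD (-1.10 ± 0.09, adjusted p = 1.3e-10) was lost without NOD basal replicate 2 (-0.99) and with median ratio scaling (-0.71), where the median of all genes moved from -0.295 to 0 in that comparison.

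After 24 hours of IL-4, 17 of 28 comparisons with C57 were called, 7 higher and 10 lower. BALB and NOD had 3 each (5.39% and 13.2% of all genes), PWK 5 (12.2%) and SPRET 6 (20.6%). The 5 genes in PWK were all higher, namely Fpr2 (1.95 ± 0.09, adjusted p = 7.6e-16), Lcn2 (3.94 ± 0.10, adjusted p = 6.1e-21), S100a8 (4.31 ± 0.09, adjusted p = 2.2e-22), S100a9 (5.50 ± 0.24, adjusted p = 2.1e-16) and Saa3 (1.89 ± 0.05, adjusted p = 1.1e-20). In SPRET, S100a8 was higher (4.08 ± 0.09, adjusted p = 2.2e-22) while Fpr2 (-1.71 ± 0.09, adjusted p = 6.3e-15), Hp (-1.89 ± 0.10, adjusted p = 3.5e-15) and Lcn2 (-3.23 ± 0.10, adjusted p = 1.5e-19) were lower. NOD held less Hp (-1.71 ± 0.10, adjusted p = 4.8e-14) and Fpr1 (-1.60 ± 0.11, adjusted p = 3.5e-12). S100a9 was just past the bound in NOD (-1.003 ± 0.24, adjusted p = 6.0e-04) and lost its call without C57 IL-4 replicate 2 (-0.70), NOD IL-4 replicate 1 (-0.92) or NOD IL-4 replicate 3 (-0.81). Between the other pairs, 28 of 42 were called, where from 11.8% (NOD against BALB) to 32.6% (SPRET against NOD) of all genes were called. Fpr1, which was lower in basal PWK than in basal C57, was not called between them after IL-4 (-0.20, 95% confidence interval -0.43 to 0.03, adjusted p = 0.12). With a pseudocount of 5 TPM, 10 comparisons with C57 were called.

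The time course is a separate experiment from the 5 strains, but its results were known when the 7 genes were set together. Here 6 of the 7 genes passed the filter on low values, as S100a9 was listed at 0 in all SPRET libraries and reached at most 0.343 TPM in C57. In C57, the receptors were the 2 genes called at 6 hours. Fpr1 was 57.7 and 57.1 TPM under basal conditions, 46.8 and 46.3 TPM at 1 hour, 9.59 and 10.9 TPM at 6 hours and 3.08 and 2.81 TPM at 24 hours. It fell by 2.38 ± 0.12 (SE, adjusted p = 5.3e-08) at 6 hours and fell by 3.89 ± 0.12 (SE, adjusted p = 3.5e-10) at 24 hours. Fpr2 was 57.8 and 54.6 TPM, then 55.2 and 50.9, 21.1 and 27.1 and 3.25 and 5.53 TPM. Its change was -1.20 ± 0.24 (SE, adjusted p = 0.0036) at 6 hours and -3.44 ± 0.24 (SE, adjusted p = 2.8e-07) at 24 hours.

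Hp, Lcn2, S100a8 and Saa3 in C57 were called only at 24 hours. Hp was 170.2 and 159.8 TPM under basal conditions, 129 and 113 TPM at 6 hours and 23.6 and 26.3 TPM at 24 hours, with changes of -0.45 ± 0.10 (SE, adjusted p = 0.0052) and -2.68 ± 0.10 (SE, adjusted p = 8.2e-10). S100a8 was 92.9 and 66.2 TPM, 62.4 and 51.7 TPM and 6.02 and 7.52 TPM, and fell by 3.36 ± 0.18 (SE, adjusted p = 2.7e-08) at the last time. Lcn2 went from 24.6 and 23.2 TPM to 4.26 and 5.01 TPM (-2.15 ± 0.27, adjusted p = 4.6e-05). Saa3 was 6607 and 6215 TPM under basal conditions and 6235 and 6405 TPM at 6 hours, where the libraries overlapped, and then 2659 and 2758 TPM (-1.24 ± 0.05, adjusted p = 3.6e-09). No gene of the 6 was called at 1 hour (0.877% of all genes were, and 1 of the 6 had an unadjusted p under 0.05 in limma). At 6 hours 2 were lower (2.13% of all genes were called, 0.571% lower), and at 24 hours 6 were lower (5.76%, 2.91% lower). The 3 times share the basal libraries.

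In SPRET, the same 3 genes were called at 6 and at 24 hours, Fpr1, Fpr2 and Hp. Fpr1 was 23.6 and 29.7 TPM under basal conditions, 2.68 and 3.73 TPM at 6 hours and 2.73 and 3.11 TPM at 24 hours (-2.81 ± 0.12, adjusted p = 4.7e-09). Fpr2 was 15.3 and 13.6 TPM, 2.82 and 1.35 TPM and 1.42 and 2.16 TPM (-2.48 ± 0.24, adjusted p = 5.0e-06 at 24 hours). For both receptors, the libraries at 6 and 24 hours overlapped. Hp was 104 and 116 TPM, 36.4 and 35.5 TPM and 14.5 and 14.8 TPM, with -1.58 ± 0.10 (SE, adjusted p = 8.8e-08) at 6 hours and -2.82 ± 0.10 (SE, adjusted p = 4.4e-10) at 24 hours. The counts were 0 at 1 hour (1.89% of all genes, with 2 of 6 at an unadjusted p under 0.05 in limma), 3 lower at 6 hours (4.57% of all genes were called, 1.75% lower) and 3 lower at 24 hours (5.62%, 2.99% lower). At 1 hour, 1 of the 6 was lower with an adjusted p under 0.05 in limma, but by less than 2-fold. Without overlap of libraries, the Hp mean went from 110 to 79.9 TPM and the Fpr1 mean from 26.6 to 33.0 TPM at that time.

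S100a8 stayed high in SPRET, at 64.7 and 58.7 TPM under basal conditions and 68.8 and 86.0 TPM at 24 hours (0.32, 95% confidence interval -0.08 to 0.71, adjusted p = 0.21). Saa3 went from 6891 and 6379.8 TPM to 4255 and 4641 TPM, a change of -0.58 ± 0.05 (SE, adjusted p = 3.2e-06) that stayed under 2-fold. Lcn2 was at or below 2.06 TPM in all SPRET libraries of this table, with 2 of them at 0.

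**Figure D2:**
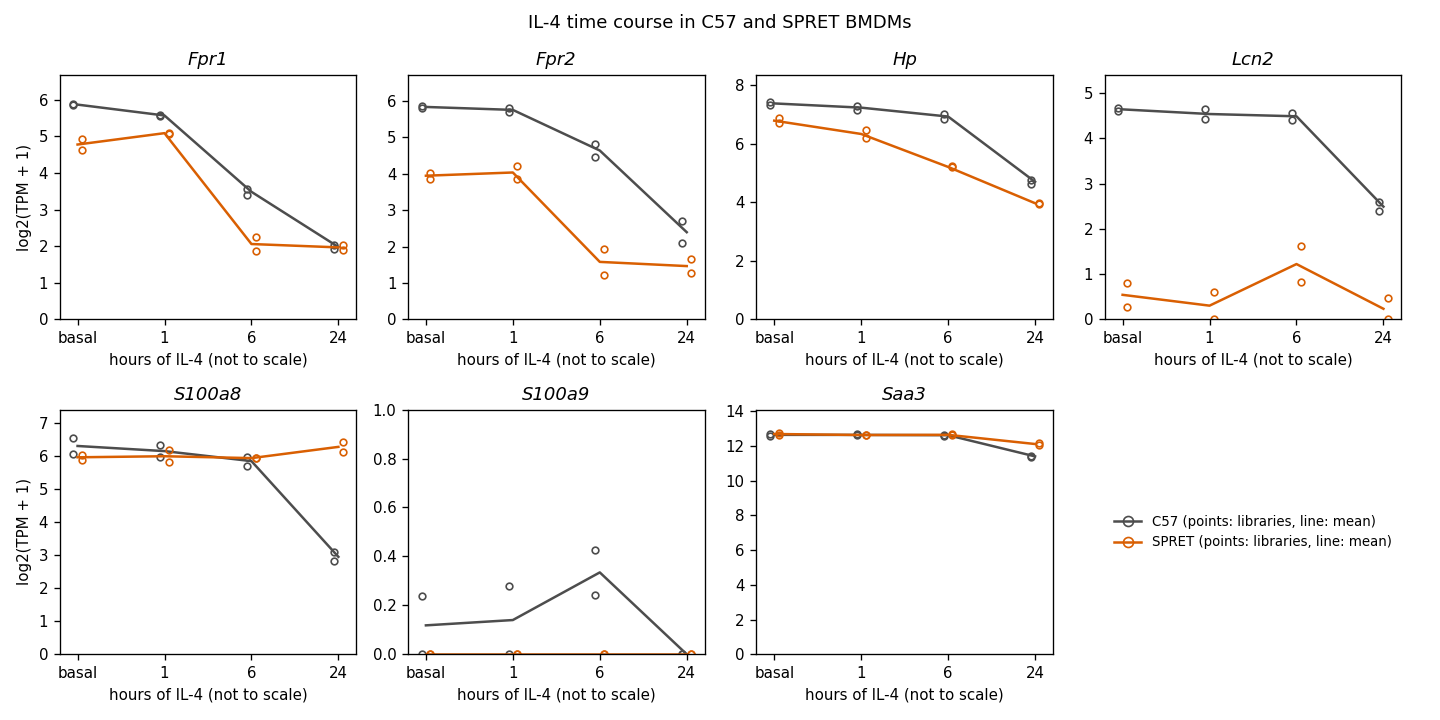
The 7 genes as log2(TPM + 1) in C57 (grey) and SPRET (orange) BMDMs, untreated or at 1, 6 and 24 hours of IL-4, with points for libraries and lines through the means. Fpr1 in both strains and Fpr2 in SPRET are already low at 6 hours, Fpr2 in C57 is partway down, S100a8 falls at 24 hours in C57 and not in SPRET, and S100a9 stays below 1 on this scale.

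The response itself was then compared between SPRET and C57 by an interaction contrast in limma. At 6 hours, SPRET had the larger fall of Hp (-1.13 ± 0.14, adjusted p = 1.7e-04) and of Fpr2 (-1.17 ± 0.34, adjusted p = 0.047), and 2.40% of all genes differed. The call for Hp did not depend on a single library. That for Fpr2 did, as its adjusted p ranged up to 0.17 and was above 0.05 without any 1 of 13 of the 16 libraries, the exceptions being both of C57 at 24 hours and SPRET 6-hour replicate 1. At 24 hours (6.22% of all genes), the C57 fall was the larger for S100a8 (3.68 ± 0.26, adjusted p = 8.4e-07), Lcn2 (1.84 ± 0.38, adjusted p = 0.0033) and Fpr1 (1.08 ± 0.18, adjusted p = 6.3e-04). Saa3 differed by 0.67 ± 0.08 (SE, adjusted p = 4.0e-05), under 2-fold, and Fpr2 by 0.96 (95% confidence interval, 0.21 to 1.70, adjusted p = 0.054). The receptors had the opposite order in the 5-strain table, given without a test. There the Fpr1 mean was 14.9-fold lower after 24 hours in SPRET and 5.72-fold lower in C57, against 9.12-fold and 19.5-fold in the time course. The Fpr2 mean was 4.58% of basal in SPRET and 8.35% in C57, against 12.4% and 7.81% in the time course.

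The difference of the Hp response at 24 hours was not called (-0.14, 95% confidence interval -0.44 to 0.15, adjusted p = 0.48). None of the 6 was called at 1 hour (0.811% of all genes), where 2 had an unadjusted p under 0.05 in limma. Fpr1 at 24 hours was 0.92 without SPRET basal replicate 1, under the bound. Fpr2 at 24 hours was called without C57 24-hour replicate 2 (1.27) or SPRET 24-hour replicate 1 (1.15). The Fpr2 difference at 24 hours was also called with a pseudocount of 5 TPM (1.19, adjusted p = 7.4e-04). It was called with median ratio scaling (1.02, adjusted p = 0.043) and with quantile normalization (1.02, adjusted p = 0.038) as well. At 6 hours, the Fpr2 difference was -0.39 (adjusted p = 0.27) with a pseudocount of 5 TPM and not called. For Lcn2, SPRET began near 0, and with a pseudocount of 0.1 TPM the difference was 1.11 (adjusted p = 0.54).

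Within this table, SPRET and C57 were also compared level by level, a comparison added after the values were seen. Under basal conditions, Fpr1 (-1.09 ± 0.12, adjusted p = 7.9e-06), Fpr2 (-1.89 ± 0.24, adjusted p = 2.2e-05) and Lcn2 (-4.09 ± 0.27, adjusted p = 4.7e-08) were lower in SPRET (18.8% of all genes were called). Basal S100a8 (-0.34, 95% confidence interval -0.74 to 0.05, adjusted p = 0.12) and Saa3 (0.05, 95% confidence interval -0.07 to 0.17, adjusted p = 0.45) were not called, whereas in the 5-strain table both were higher in SPRET. Basal Fpr1 also turned between the tables, with means of 26.6 TPM in SPRET and 57.4 TPM in C57 here, and 52.8 TPM and 43.0 TPM in the 5-strain table, where all SPRET libraries were above those of C57. After 24 hours (20.5%), S100a8 was higher in SPRET (3.33 ± 0.18, adjusted p = 6.6e-09) and Lcn2 lower (-2.25 ± 0.27, adjusted p = 1.2e-05). The neutrophil genes, of which 10 of 14 were below 1 TPM in every library here, summed to 285–302 TPM in basal C57 (of which Mmp8 was 266–282 TPM, against 0.874–2.42 TPM in basal SPRET), 205–210 TPM in C57 at 24 hours, 110–111 TPM in basal SPRET and 56.6–60.7 TPM in SPRET at 24 hours. The monocyte genes were 9.33–9.58 and 5.25–6.03 TPM in C57, and 36.6–39.7 and 2.28–2.46 TPM in SPRET. The part of other cells in these differences was not tested.

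EGR2 is a transcription factor that IL-4 induces in macrophages, and its deletion was used to ask which responses need it. Egr2 itself was 23.6 and 21.3 TPM in basal Egr2WT and 0.859 and 0.854 TPM in basal Egr2MKO, and after 24 hours of IL-4 101 and 99.5 TPM and 4.72 and 7.05 TPM. In Egr2WT, Fpr1 went from 34.8 and 34.7 TPM to 7.15 and 6.15 TPM at 6 hours and 2.43 and 1.78 TPM at 24 hours (-3.53 ± 0.11, adjusted p = 4.6e-10). In Egr2MKO it started higher, at 73.1 and 64.5 TPM, and reached 7.63 and 7.72 TPM at 6 hours and 2.89 and 2.92 TPM at 24 hours (-4.16 ± 0.11, adjusted p = 1.1e-10). Fpr1 thus fell with and without Egr2.

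Fpr2 fell from 26.4 and 31.6 TPM to 1.73 and 2.30 TPM in Egr2WT (-3.32 ± 0.24, adjusted p = 5.9e-07) and from 40.9 and 42.0 TPM to 2.74 and 1.28 TPM in Egr2MKO (-3.86 ± 0.24, adjusted p = 1.2e-07). Hp fell from 45.5 and 43.2 TPM to 4.57 and 5.25 TPM in Egr2WT (-2.94 ± 0.34, adjusted p = 3.3e-05) and from 43.2 and 48.8 TPM to 0.653 and 3.95 TPM in Egr2MKO (-4.04 ± 0.34, adjusted p = 1.9e-06). The Egr2MKO libraries at 24 hours differed widely in Hp. Lcn2 went from 11.8 and 8.96 TPM to 2.97 and 3.70 TPM (-1.38 ± 0.23, adjusted p = 5.8e-04) and, in Egr2MKO, from 11.8 ± 0.248 TPM (SD, n = 2) to 2.58 and 4.12 TPM (-1.58 ± 0.23, adjusted p = 2.2e-04). S100a8 went from 39.9 and 47.3 TPM to 12.3 and 11.3 TPM (-1.80 ± 0.16, adjusted p = 4.1e-06) and from 32.2 and 36.4 TPM to 7.04 and 6.16 TPM (-2.22 ± 0.16, adjusted p = 5.6e-07).

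All 7 genes were called lower at 24 hours in Egr2WT (4.35% of all genes were called, 2.04% lower), and 5 in Egr2MKO (4.83%, 2.07% lower), without S100a9 and Saa3. Saa3 in Egr2MKO changed by -0.95 ± 0.05 (SE, adjusted p = 5.3e-08), just under 2-fold, against -1.05 ± 0.05 (SE, adjusted p = 2.5e-08) in Egr2WT, which was just under 2-fold without Egr2WT basal replicate 2 and -0.99 with median ratio scaling. S100a9 in Egr2WT (-1.18 ± 0.34, adjusted p = 0.02) lost its call without Egr2WT basal replicate 1 (adjusted p = 0.13) or Egr2WT 24-hour replicate 2 (adjusted p = 0.14). At 6 hours, Fpr1, Fpr2 and Hp were lower in Egr2WT (2.86% of all genes were called, 0.869% lower) and in Egr2MKO (3.70%, 1.33% lower). Hp at 6 hours in Egr2WT (-1.01 ± 0.34, adjusted p = 0.048) had an adjusted p between 0.054 and 0.18 without any 1 of 14 of the 16 libraries, the exceptions being those of Egr2MKO at 24 hours, and in Egr2MKO (-1.32 ± 0.34, adjusted p = 0.012) it was 0.074 without basal replicate 2. At 1 hour, no gene of the 7 was called in Egr2WT (0.778% of all genes, either direction) or Egr2MKO (0.902%), and none had an unadjusted p under 0.05 in limma. Monocyte genes summed to 108–113 TPM in basal Egr2WT, 18.5–19.9 TPM at 24 hours, 82.5–84.6 TPM in basal Egr2MKO and 19.0–20.0 TPM at 24 hours. Neutrophil genes summed to 159–172 TPM in basal Egr2WT, 127–131 TPM at 24 hours, 157.0–157.2 TPM in basal Egr2MKO and 138–147 TPM at 24 hours. Of these, Mmp8 was 98.9–99.8 TPM in Egr2WT and 36.2–43.9 TPM in Egr2MKO at 24 hours, and 130–139 and 122–124 TPM under basal conditions. The part of the monocyte and neutrophil genes was not tested.

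Saa3 was the only 1 of the 7 genes called between the genotypes at all 4 times. Basal Saa3 was 903 and 975 TPM in Egr2WT and 2756 and 2774 TPM in Egr2MKO, and at 24 hours 442 and 460.5 TPM and 1443 and 1423 TPM. Egr2MKO minus Egr2WT was 1.56 ± 0.05 (SE, adjusted p = 6.7e-09) under basal conditions, 1.57 ± 0.05 (SE, adjusted p = 6.9e-09) at 1 hour, 1.47 ± 0.05 (SE, adjusted p = 7.8e-09) at 6 hours and 1.67 ± 0.05 (SE, adjusted p = 1.0e-09) at 24 hours. S100a9 went the other way, with 17.4 and 13.2 TPM in basal Egr2WT and 6.45 and 5.58 TPM in basal Egr2MKO (-1.21 ± 0.34, adjusted p = 0.041). At 6 hours, the values were 16.2 and 12.8 TPM and 3.88 and 1.64 TPM (-2.10 ± 0.34, adjusted p = 0.0011). By 24 hours, 7.26 and 5.12 TPM in Egr2WT and 8.40 and 3.53 TPM in Egr2MKO overlapped (-0.12, 95% confidence interval -0.87 to 0.62, adjusted p = 0.81).

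Of 28 comparisons of Egr2MKO with Egr2WT, 9 were called. These were Saa3 and S100a9 under basal conditions (0.853% of all genes were called), at 1 hour together with Fpr1 (1.06%) and at 6 hours (2.30%), and Saa3 and Hp at 24 hours (4.55%). Fpr1 was higher in Egr2MKO by 0.96 ± 0.11 (SE, adjusted p = 1.5e-04) under basal conditions and 1.02 ± 0.11 (SE, adjusted p = 9.1e-05) at 1 hour, which was 0.90 without Egr2WT 1-hour replicate 2. The basal and 1-hour calls for S100a9 were lost without single libraries, with adjusted p up to 0.22 and 0.18. Hp at 24 hours (-1.04 ± 0.34, adjusted p = 0.03) rested on Egr2MKO replicate 1, at 0.653 TPM, and was -0.25 without it and -1.84 without replicate 2. Its adjusted p was also above 0.05 without either Egr2WT 24-hour library (0.079 and 0.13). S100a8 at 24 hours was lower in Egr2MKO by 0.75 ± 0.16 (SE, adjusted p = 0.0034), under 2-fold. Both genotypes carried the floxed Egr2 alleles, so a difference between them is that between cells with and without Cre.

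By the interaction contrast, none of the 7 responses was called different between Egr2MKO and Egr2WT at 1 hour (0.00828% of all genes, 0 of 7 with an unadjusted p under 0.05), 6 hours (0.207%, 3 of 7) or 24 hours (1.90%, 3 of 7). The fall of Fpr1 was larger in Egr2MKO, where the log2 change decreased by a further 0.78 ± 0.16 (SE, adjusted p = 0.042) at 6 hours and by 0.62 ± 0.16 (SE, adjusted p = 0.023) at 24 hours, in both cases under 2-fold. The interval for Fpr2 at 24 hours was wide, at -0.55 (95% confidence interval, -1.29 to 0.20, adjusted p = 0.36), and that for Saa3 was narrow, at 0.11 (95% confidence interval, -0.06 to 0.27, adjusted p = 0.43). Past 2-fold but not called at 24 hours were Hp, at -1.10 (95% confidence interval, -2.15 to -0.05, adjusted p = 0.17), and S100a9, at 1.08 (95% confidence interval, 0.03 to 2.14, adjusted p = 0.18). Both rested on single libraries. Without Egr2MKO 24-hour replicate 1, the values were -0.30 for Hp and 0.56 for S100a9 (adjusted p = 0.20 and 0.51), and without replicate 2 they were -1.89 and 1.61 and were called (adjusted p = 2.4e-05 and 0.040).

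**Figure D3:**
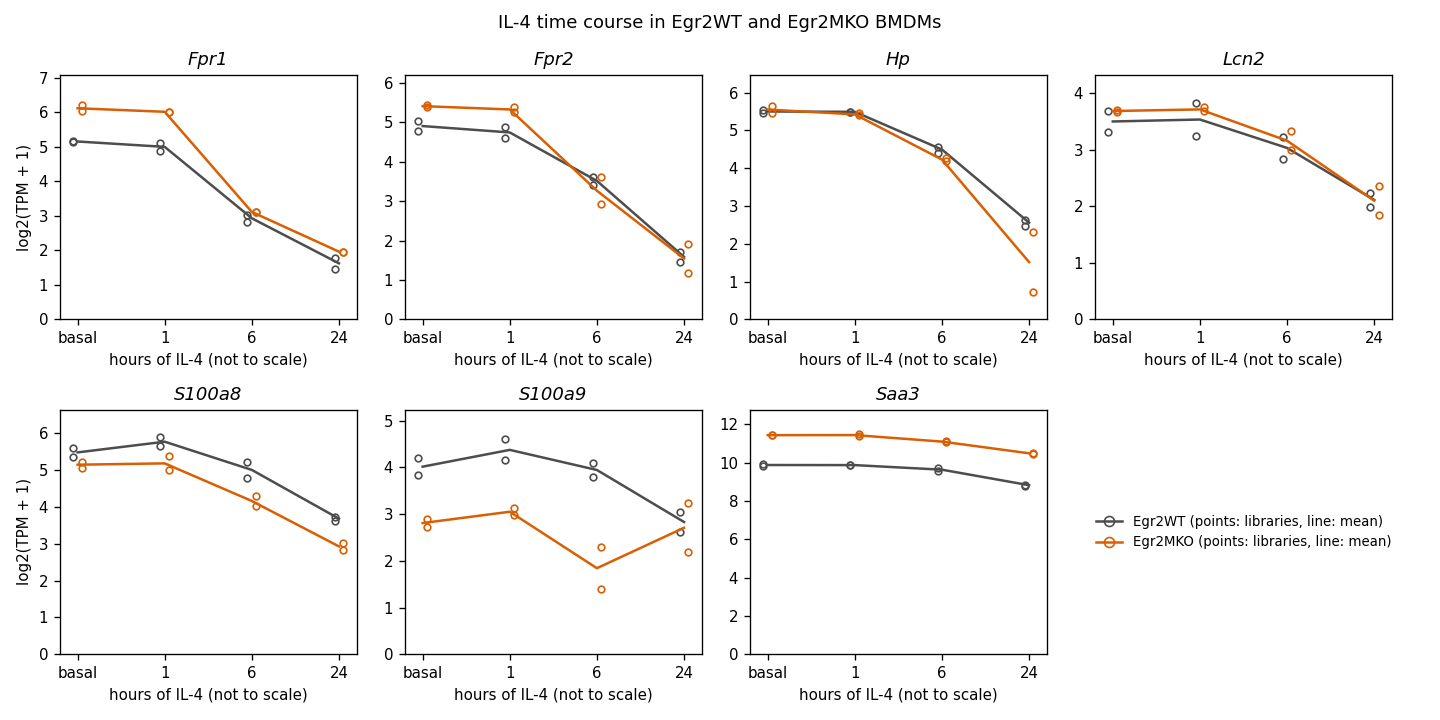
The 7 genes as log2(TPM + 1) in Egr2WT (grey) and Egr2MKO (orange) BMDMs, untreated or at 1, 6 and 24 hours of IL-4, with points for libraries and lines through the means. Saa3 is higher in Egr2MKO at all times, S100a9 is lower until 6 hours, and the receptors fall in both genotypes.

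**Figure D4:**
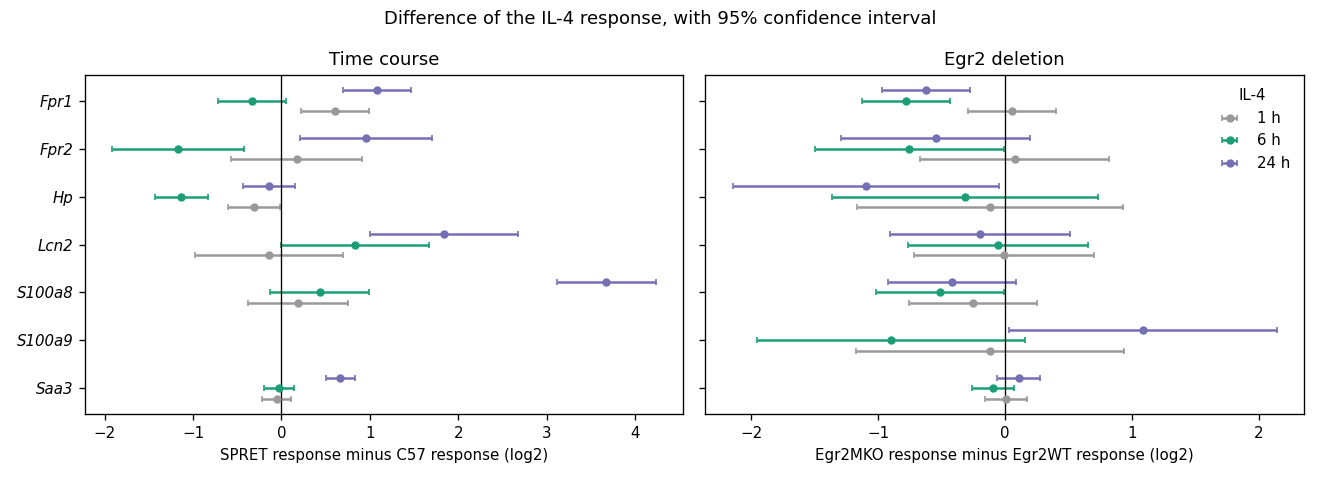
Difference of the IL-4 response in log2 units between SPRET and C57 (left) and between Egr2MKO and Egr2WT (right) at 1, 6 and 24 hours, with points for estimates and bars for 95% confidence intervals from limma. S100a8 at 24 hours lies farthest from 0 on the left (3.68), and S100a9 was not tested there.

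F1 C57 × SPRET cells carry both alleles in the same nuclei, which allows them to be compared there. The F1 values are weighted by the reads that fall on variants, so they are compared only within that table. S100a8 had 20.2 and 7.44 for the C57 allele and 41.4 and 20.5 for the SPRET allele under basal conditions, and 11.7 and 9.11 against 26.1 and 15.6 after IL-4. The SPRET allele was thus higher in all 4 libraries. The log2 ratio of C57 to SPRET was -1.17 ± 0.17 (SE, adjusted p = 0.027) under basal conditions, the only 1 of 4 genes tested that was called (7.38% of all genes), and -0.90 ± 0.17 (SE, adjusted p = 0.057) after IL-4, when none was called (4.14%, with 2 of 4 at an unadjusted p under 0.05 in limma). Without basal replicate 1 or 2, the basal call was lost (adjusted p = 0.18 and 0.22). Between the parents, SPRET minus C57 was 1.90 under basal conditions and 4.08 after IL-4 in the 5-strain table, given here without a test. In the time course these were -0.34, the opposite direction, and 3.33. The ratio of C57 to SPRET for Lcn2 was -0.97 ± 0.29 (SE, adjusted p = 0.10) under basal conditions and 0.16 ± 0.29 (SE, adjusted p = 0.74) after IL-4. The basal direction of Lcn2 was opposite to that of the parents, with means of 83.7 TPM in C57 and 1.73 TPM in SPRET. For Saa3 the ratios were -0.13 ± 0.24 (SE, adjusted p = 0.75) and -0.62 ± 0.24 (SE, adjusted p = 0.18).

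The C57 allele of Hp was listed at 1.20 and 0.709 under basal conditions and 4.04 and 2.79 after IL-4, and the SPRET allele at 0 in both basal libraries and 1.63 and 1.19 after IL-4. The log2 ratio of C57 to SPRET for Hp was 0.96 ± 0.13 (SE, adjusted p = 0.024) under basal conditions and 0.86 ± 0.13 (SE, adjusted p = 0.044) after IL-4. With the SPRET allele at 0, the basal ratio is set by the added constant of 1, and with a constant of 0.1 it was 3.36 (adjusted p = 0.036) and called. The sum of both alleles was higher after IL-4 (1.57 ± 0.23, adjusted p = 0.015), and so was that of Saa3 (1.67 ± 0.36, adjusted p = 0.03), whose C57 allele went from 0.883 and 2.73 to 7.17 and 3.41 and SPRET allele from 1.41 and 2.47 to 8.62 and 7.84. These 2 genes were called (10.8% of all genes), and in both parental strains they were lower after IL-4. In the table of strains, mean Saa3 went from 26074 to 9933 TPM in C57 and from 70757 to 29745 TPM in SPRET. Mean Hp went from 369 to 38.8 TPM in C57 and from 99.6 to 9.71 TPM in SPRET. The F1 values of both genes are low and weighted, so their higher sums cannot be read as a rise in expression. The part of the weighting by reads on variants in these values was not tested. Without F1 basal replicate 1, the adjusted p was 0.070 for Hp and 0.082 for Saa3, and without basal replicate 2 it was 0.062 and 0.052. The call for Saa3 was also lost without IL-4 replicate 1 (0.093) or 2 (0.052). Fpr1, Fpr2 and S100a9 were at or below 0.495 for each allele and did not pass the filter. In F1 C57 × NOD cells, S100a8 was the only 1 of the 7 above 0, with 54.8 and 217 for the NOD allele under basal conditions and 95.5 and 0 after IL-4, and it was not called.

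Over the 10 group means of the 5-strain table, the 7 genes did not share 1 pattern. Pearson r of log2(TPM + 1) was 0.96 between S100a8 and Saa3, 0.84 between Fpr2 and Hp and between Lcn2 and S100a9, 0.59 between the neighbours Fpr1 and Fpr2, and 0.43 between S100a8 and S100a9. The 10 points share strains and libraries, so these are descriptions. Among 8808 genes, the 3 most like Fpr1 were Slc28a2 (r = 0.908), C5ar1 (0.897), the receptor for the complement fragment C5a, and Lst1 (0.892). For Fpr2 they were Fcer1g (0.940), the common Fc receptor gamma chain, Tmem63a (0.913) and Osgin1 (0.905), and for Hp they were Fam102b (0.931), Rnf149 (0.917) and Coro1a (0.905). Lcn2 was most like Rnd1 (0.971), Ly6i (0.964) and Hspb6 (0.963), and S100a8 was most like Mrpl33 (0.973), Lsm6 (0.971) and Saa3. S100a9 was nearest to Zranb3 (0.971), Zfp956 (0.968) and 2010005H15Rik (0.961), and Saa3 to S100a8, Pid1 (0.957) and Klra2 (0.949).

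Genes around the 7 were taken from lists of their family, ligands, signalling, inducers and related functions, with 93 genes of which 72 were tested. In the C57 time course at 24 hours, 6 were called higher and 10 lower (2.85% and 2.91% of all genes), with a median log2 change of -0.241 against -0.019 over all genes. No other formyl peptide receptor passed the filter, and Fpr3 was listed at 0 in these C57 libraries. Among 6 chemoattractant receptors tested, C5ar1 fell from 109 to 27.4 TPM (log2 change -1.96 ± 0.09, adjusted p = 7.0e-09), while Ltb4r1, a leukotriene B4 receptor, rose from 0.875 to 3.58 TPM (log2 change 1.29 ± 0.23, adjusted p = 8.0e-04). Of 14 genes of receptor signalling and the oxidase, only Cybb, the catalytic subunit of the phagocyte oxidase, was called and fell from 1453 to 618 TPM (log2 change -1.23 ± 0.06, adjusted p = 1.5e-08). None of the 3 ligand genes was called in C57.

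Of 7 genes that handle haem, Hmox1, which breaks haem down, fell from 744 to 225 TPM (log2 change -1.72 ± 0.05, adjusted p = 1.7e-10), and the iron exporter Slc40a1 fell from 13.5 to 1.98 TPM (log2 change -2.28 ± 0.16, adjusted p = 3.1e-07). Cd163, the receptor for complexes of haptoglobin and haemoglobin, was near 1 TPM in basal C57 (1.02 TPM) and 0.318 TPM at 24 hours, and was not called. Among 7 iron genes, the transferrin receptor Tfrc rose from 373 to 1048 TPM (log2 change 1.49 ± 0.11, adjusted p = 3.6e-07), and Mmp9, whose product binds lipocalin 2, fell from 81.9 to 36.5 TPM (log2 change -1.15 ± 0.10, adjusted p = 2.7e-06). Of 7 other acute-phase genes tested, Serpina3g rose from 0.417 to 3.76 TPM (log2 change 1.70 ± 0.28, adjusted p = 3.7e-04), whereas Saa1 was at or below 0.198 TPM on average and Saa2 was listed at 0.

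A further 3 S100 genes of 6 tested fell in C57, S100a4 from 795 to 314 TPM (log2 change -1.34 ± 0.10, adjusted p = 4.4e-07), S100a11 from 191 to 94.5 TPM (log2 change -1.03 ± 0.11, adjusted p = 1.1e-05) and S100a6 from 511 to 251 TPM (log2 change -1.02 ± 0.05, adjusted p = 1.7e-08). Among 6 receptors for S100 proteins, Cd14 fell from 358 to 80.9 TPM (log2 change -2.13 ± 0.10, adjusted p = 6.1e-09) and Tlr2 fell from 80.8 to 18.9 TPM (log2 change -2.04 ± 0.09, adjusted p = 4.0e-09), while the scavenger receptor Cd36 rose from 274 to 749.8 TPM (log2 change 1.45 ± 0.05, adjusted p = 4.8e-10). Of 8 genes for acute-phase cytokines and their receptors, Il6st, the shared signal chain of the IL-6 family, rose from 21.6 to 66.8 TPM (log2 change 1.59 ± 0.06, adjusted p = 8.2e-10), and Il1r1 rose from 1.64 to 4.95 TPM (log2 change 1.16 ± 0.15, adjusted p = 4.7e-05). None of 8 transcription factor genes of the acute phase was called in C57. In SPRET at 24 hours, 7 of the 72 were called higher and 12 lower (2.62% and 2.99% of all genes, median -0.137 against -0.054). In Egr2WT at 24 hours there were 7 and 11 (2.31% and 2.04%, median -0.111 against -0.048), and in basal Egr2MKO against Egr2WT 1 and 1 (0.373% and 0.480%, median 0.056 against 0.015). The calls of S100 genes in C57 were not seen in the other cells. Of the same 6 genes, 0 were called in SPRET and 0 in Egr2WT at 24 hours. Their median log2 change was -0.029 in SPRET and 0.043 in Egr2WT, against -0.847 in C57.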

How the data were processed

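RNA-seq of BMDMs was deposited as TPM tables for 5 strains (29 libraries), a C57 and SPRET time course (16), Egr2WT and Egr2MKO (16) and 2 F1 crosses (4 each). The authors prepared stranded polyA libraries, sequenced single ends of 75 bases, aligned reads with STAR 2.5.3 to strain genomes made with MMARGE 1.0, shifted the alignments to mm10 and counted with HOMER 4.11.1. The deposited TPM values are scaled per library and per transcript length. For the F1 tables, the authors weighted read counts by the share of reads on variant positions, with a factor of 10, before assigning them to either parental genome, so a value of 0 can be a transcript with no assigned read and depth is unknown. The tables other than F1 also carry the authors' own test columns (log2 fold change, p-value, adjusted p-value), which were not used, and 8 columns of a human macrophage table without matching labels were not used either.

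Groups came from the sample labels, and replicates are biological replicates per the methods, so p-values measure the spread between these samples. For each table, log2(TPM + 1) of the genes that reached 1 TPM in 2 or more libraries (11907, 12088 and 12079 genes) was fitted with limma 3.58.1 (R 4.3.3, trended prior) with a mean for every group, and p-values were adjusted by Benjamini-Hochberg over all genes tested. In the F1 tables, genes with a sum of both alleles of at least 1 in at least 2 libraries were tested (12256 in C57 × SPRET and 5229 in C57 × NOD) on the log2 ratio of alleles or the log2 of their sum, each with a constant of 1 added. A call needs more than 2-fold and an adjusted p under 0.05. Fold changes on the log2(TPM + 1) scale understate those of low genes. Tables were not compared by test.

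Members, lists and tests were chosen with earlier results of these data known. The text names all 7 members, at most 3 called genes of each list with the largest change in C57 at 24 hours, Fpr3, Saa1, Saa2 and Cd163, Egr2, the top gene of the macrophage and neutrophil lists, and the 3 genes most like each member among those with at least 5 TPM in a group mean. Scripts in Python 3.11.15 (pandas 2.3.3, matplotlib 3.10.9) searched promoter windows, and the fits were tested on simulated data. Other pseudocounts (0.1 and 5 TPM), filters (none, or 5 TPM in 2 libraries), scalings (median ratio, quantile), fits of the compared groups alone, a replicate block and leaving out each library were tried.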

Additional observations from a re-analysis of the deposited data

Results flagged for a closer look

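The following responses differed between groups by the interaction contrast in limma. SPRET minus C57 was -1.17 for Fpr2 and -1.13 for Hp at 6 hours, and 1.08 for Fpr1, 1.84 for Lcn2, 3.68 for S100a8 and 0.67 for Saa3 at 24 hours (log2 units, 2 libraries a group). For Fpr1 the direction turned in the 5-strain libraries, whose means were 14.9-fold lower after IL-4 in SPRET and 5.72-fold lower in C57, a difference given without a test. Egr2MKO minus Egr2WT was -0.78 at 6 hours and -0.62 at 24 hours for Fpr1. For S100a9 in the 5 strains, every library moved one way in some strains and the other way in another, with ratios of IL-4 to basal means of 0.288 in C57, 0.358 in BALB and 1.34 in PWK, and this difference was not tested. No group had more than 3 libraries, so single libraries were not screened within groups.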

How the results depend on the processing

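Of 5637 values for 213 comparisons under other settings, 5511 stayed called or stayed not called, 96 lost a call, 30 gained one and 0 reversed a call, and 39 comparisons changed under at least 1 setting. A change of direction in values not called was not counted. Pairs of strains without C57 and the levels added in the time course were not rerun. Counts of calls moved by more than 1.5 times in few cases, and the cause was not tested. With a pseudocount of 5 TPM, levels after IL-4 against C57 gave 10 calls in place of 17, and the pathway lists in Egr2WT at 24 hours 11 in place of 18. The comparisons of Egr2MKO with Egr2WT gave 6 in place of 9 with that pseudocount and 6 with no filter. In F1 C57 × SPRET, the allele ratio gave 2 calls with a constant of 0.1, 0 with 5 and 0 without a filter in place of 1, and the response gave 1 with a constant of 5 and 1 without a filter in place of 2. Leaving out each library gave 17 to 18 calls for basal strain differences, 16 to 18 for levels after IL-4, 14 to 15 for the time course, 3 to 6 for the SPRET minus C57 response (3 without SPRET basal replicate 1), 16 to 19 for the Egr2 table, 7 to 10 for Egr2MKO against Egr2WT, 0 to 2 for the difference of their responses (2 without Egr2MKO 24-hour replicate 2), 0 to 1 for the F1 ratio, 0 to 1 for the F1 C57 × SPRET response and 0 to 0 for F1 C57 × NOD. Where this left 1 library in a group, that library is assumed to vary like the other groups.

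Same-numbered libraries did not all deviate together (r from -0.134 to 0.333 with a mean of 0.0134 for the 5 strains, from -0.143 to 0.266 with a mean of 0.0305 for the time course, and from -0.139 to 0.0565 with a mean of -0.0046 for Egr2WT and Egr2MKO). Whether they share a mouse or culture cannot be told from these values. In groups of 2 libraries, as in the time course and in Egr2WT and Egr2MKO, the 2 deviate from their mean as mirror images. With the replicate number as a block, the counts were 18, 17, 14, 4, 18, 9 and 0 in the order above, and 2 and 0 for the F1 responses. Fpr2 at 6 hours was the call that the block removed from the SPRET minus C57 response (adjusted p = 0.055 in limma). Median ratio scaling moved the median of all genes by up to 0.333 in comparisons between strains. Values near or below 1 TPM, such as Lcn2 and S100a9 in SPRET and S100a9 in the time course, rest on few reads.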
